A study of Mus musculus with 24 samples.

Results

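The genes described here are the regulators of epithelial to mesenchymal transition Snai1, Snai2, Zeb1, Zeb2 and Twist1, their epithelial counter-regulator Ovol1, the cadherins Cdh1 and Cdh2, the intermediate filament gene Vim and the matrix gene Fn1. They were taken by symbol: 23 of the 45101 probe sets of the arrays carry 1 of these 10 names, and the 10 genes are 10 of 18193 named genes. RNA was measured on 24 Affymetrix arrays of C57BL6/J mice. The groups are CD29hiCD24+, CD29+CD24+ and Lin- cells of 5 mammary adenocarcinomas of Apc+/1572T mice, and the same 3 populations of 3 pools of mammary glands of Apc+/+ mice. The first 2 populations are gates within the Lin- cells, each sample held 10000 sorted cells, and the aims of the series were to set tumour against normal CD29hiCD24+ cells and this gate against its more differentiated counterpart. The tumours, A to E, were independent and the pools, F to H, were isolated independently, so each array of a group is a separate biological sample, but a pool holds glands of more than 1 animal. Every tumour carries the heterozygous Apc allele, a truncating one, and no pool does, so tumour state and genotype cannot be told apart. The age of the animals is not given in the sources used here.

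In epithelial to mesenchymal transition, epithelial cells give up their adhesion junctions and gain a motile, matrix-producing state. Zinc finger proteins of the Snail and Zeb families and the helix-loop-helix protein Twist1 drive it by binding E-box sequences, among them those of the Cdh1 promoter, and by repressing epithelial genes, while cells raise Vim, Fn1 and Cdh2. In the mammary gland Snai2 and Vim are also made by normal basal cells, which contract and lie on the basement membrane, and stromal fibroblasts make Vim and Fn1.

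To show what an E-box looks like in its setting, the 250 bases before the transcription start are given for Snai1, whose probe set showed no signal, and Vim, which had the second widest span between groups. The widest span was that of Snai2, whose sequence is not shown. Both are on the forward strand of the RefSeq assembly GRCm38.p6, Snai1 at chr2:167537945-167538194 and Vim at chr2:13574061-13574310, and capitals mark each match to CANNTG on either strand.
Snai1: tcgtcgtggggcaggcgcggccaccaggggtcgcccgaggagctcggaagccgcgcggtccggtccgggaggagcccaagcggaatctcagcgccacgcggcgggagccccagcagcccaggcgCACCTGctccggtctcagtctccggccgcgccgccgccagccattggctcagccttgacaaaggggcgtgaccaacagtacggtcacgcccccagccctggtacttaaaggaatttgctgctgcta
Vim: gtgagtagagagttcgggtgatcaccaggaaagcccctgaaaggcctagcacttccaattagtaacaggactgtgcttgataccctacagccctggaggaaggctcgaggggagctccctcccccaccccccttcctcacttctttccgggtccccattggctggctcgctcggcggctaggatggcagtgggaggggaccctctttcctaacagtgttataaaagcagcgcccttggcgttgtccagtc
The Snai1 stretch holds 1 match, CACCTG, the form that Snail and Zeb proteins prefer, which starts 126 bases before the start site. The Vim stretch holds 0 matches. In windows that run from these 250 bases to 50 bases past the start, CACCTG or its reverse complement CAGGTG was found in 20.2% of 32851 promoters and CANNTG, which includes it, in 72.3%. Windows of Zeb2 and Twist1 held 0 matches to CANNTG. A match is a run of letters and not a measured binding site.

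Values are the log2 signals deposited by the authors. About 40% of all values lie in a narrow band at or under 2.83, called the low band below, where differences are compressed. A probe set was kept when it lay over this band in at least 3 arrays, and each gene is represented by its brightest kept probe set on average, which left 13485 genes. Of the 10 members 9 were tested, and Snai1 was not. Differences are log2 differences ± standard error from limma fitted to all 24 arrays, where 1 is a 2-fold difference, and "called" means an adjusted p under 0.05 over all genes (limma, Benjamini-Hochberg). Levels of different genes are not compared, since each probe set has its own scale.

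In normal glands the CD29hiCD24+ gate had the higher basal means and the CD29+CD24+ gate the higher luminal means. Each marker list is given by its mean signal per array. Means of 12 basal markers lay between 12.07 and 12.32 in the CD29hiCD24+ arrays, against 3.38 to 3.60 in the CD29+CD24+ ones. Means of 11 luminal markers lay between 7.65 and 10.14 in the CD29hiCD24+ arrays, against 12.19 to 12.31 in the CD29+CD24+ ones. In tumours the basal means of the same gates lay less far apart, at 9.11 to 10.85 for the CD29hiCD24+ gate, against 8.71 to 9.17 for the CD29+CD24+ gate. They were 10.71, 10.43, 10.22 and 10.85 in the CD29hiCD24+ cells of tumours A to D, against 9.16, 9.17, 8.71 and 8.91 in their CD29+CD24+ cells. In tumour E they were 9.11 and 9.17, so the ranges met through this tumour alone. Luminal means did not overlap, though by a small margin. In tumours A and B they were 8.33 and 8.45 in CD29hiCD24+ cells, against 11.18 and 10.70 in CD29+CD24+ cells. In tumours C, D and E they were 8.53, 7.87 and 7.24, against 8.72, 8.55 and 8.66, so the luminal gap was wide in 2 tumours and narrower in 3. Lin- arrays held other cells as well: means of 14 fibroblast and matrix markers reached from 5.78 to 10.35 in tumour and from 7.76 to 9.86 in normal Lin- arrays, and were lowest in tumour D. The normal CD29hiCD24+ array of pool F stood apart, since its endothelial markers averaged 9.34, against 6.61 for pool G and 7.58 for pool H. Its leukocyte markers averaged 7.94, against 3.12 for each of the other pools, and its luminal markers 7.65, against 9.87 and 10.14. Results that rest on this array are given with and without it. In sorted samples, fewer cells of a type and less RNA per cell cannot be told apart.

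**Figure D1:**
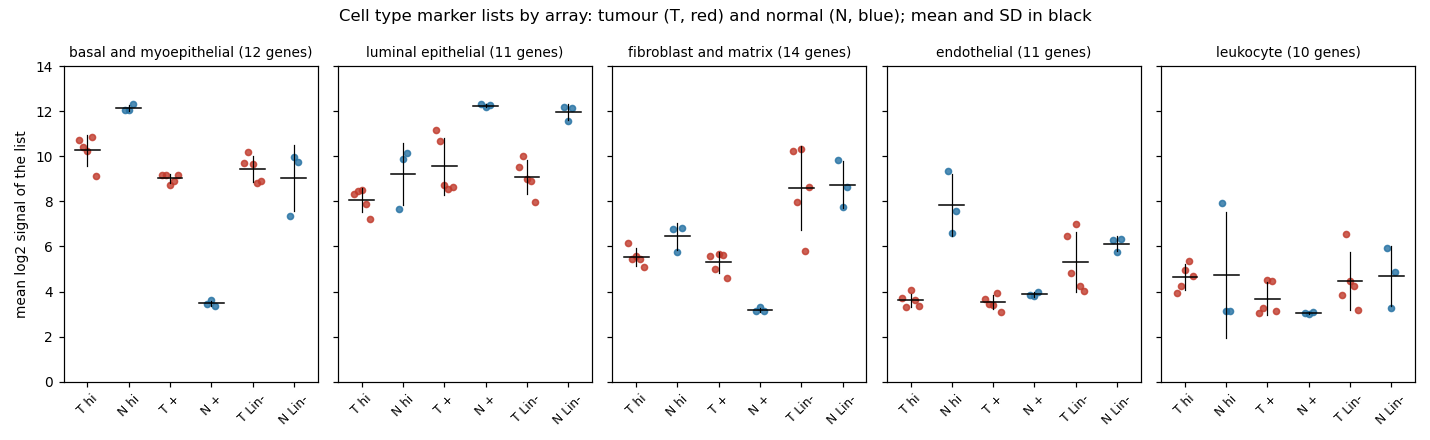
Mean log2 signal (y axis) of 5 cell type marker lists in each array of the 6 groups (x axis; T, tumour, n = 5, red; N, normal, n = 3, blue; hi, CD29hiCD24+; +, CD29+CD24+), with the group mean and SD in black. Basal means parted the normal gates (12.07 to 12.32 against 3.38 to 3.60) far more than the tumour gates, and pool F was the highest normal CD29hiCD24+ array for endothelial and leukocyte markers.

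Snai2, the Snail family factor of basal mammary cells, was near its normal CD29hiCD24+ level in every tumour population. Its signal was 12.90, 13.22, 12.97, 13.01 and 12.63 in the CD29hiCD24+ cells of tumours A to E, against 13.79, 13.72 and 13.70 in those of pools F to H. In CD29+CD24+ cells it was 12.85, 13.38, 12.94, 13.72 and 13.13 in the tumours, against 3.67, 4.80 and 4.25 in the pools. Thus normal CD29+CD24+ cells were low and the tumour cells of the same gate were as high as those of the CD29hiCD24+ gate. The CD29+CD24+ difference was 8.96 ± 0.39 (adjusted p = 1.7e-13). In Lin- cells the signal was 12.92, 13.25, 12.60, 13.41 and 12.57 in the tumours, against 9.57, 12.18 and 11.78 in the pools, a difference of 1.77 ± 0.39 (adjusted p = 0.00106). The normal Lin- arrays lay below every tumour array. In CD29hiCD24+ cells every tumour array lay below every normal one, yet the difference of -0.79 ± 0.39 was not called (adjusted p = 0.123). It was called in a fit of these 2 groups (adjusted p = 0.00341), with the mean of both probe sets (adjusted p = 0.0497) and without pool F (adjusted p = 0.0288). The second Snai2 probe set gave -1.33 ± 0.46 (adjusted p = 0.0295) there, and 7.46 ± 0.46 and 2.39 ± 0.46 in CD29+CD24+ and Lin- cells. The probe set that stands for Snai2 is of a type that can also match other transcripts.

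Snai1, the founding member of the Snail family, has a single probe set on the array, which lay over the low band in 0 of 24 arrays and ran from 2.04 to 2.38. Twist1 was over the low band in 6 arrays, so it passed the filter only through these. Its highest signals were 3.36, 3.46, 3.17 and 3.01 in the Lin- cells of tumours A, C, D and E and 3.64 in the Lin- cells of pool F. All of them are Lin- arrays. In both gates it ran from 2.30 to 2.83, and only the CD29+CD24+ array of tumour D, at 2.83, reached the edge of the low band. No Twist1 difference between tumour and normal was called, at -0.04 ± 0.22 in CD29hiCD24+, 0.16 ± 0.22 in CD29+CD24+ and 0.24 ± 0.22 in Lin- cells. The Lin- difference was 0.63 and called (adjusted p = 0.0154) without pool F. The normal Lin- arrays then left, at 2.51 and 2.40, lie in the low band. The direction of this call was therefore fixed by the filter, and the call supports nothing. An RNA at this signal may be present at a level the array does not resolve.

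Zeb1 and Zeb2 are zinc finger and homeodomain repressors. Zeb1 had like means in normal CD29hiCD24+ (5.60 ± 2.08) and normal Lin- cells (5.88 ± 0.76, SD, n = 3 each), and its highest array was the CD29hiCD24+ one of pool F. The likeness of these means rests on pool F. CD29hiCD24+ minus Lin- cells gave 1.32 in pool F, -0.92 in pool G and -1.23 in pool H. Zeb1 was 2.43, 2.44, 2.70, 3.43 and 2.52 in the CD29hiCD24+ cells of tumours A to E, against 7.998, 4.26 and 4.55 in those of pools F to H. In CD29+CD24+ cells it was 2.49, 2.45, 3.54, 2.47 and 2.51 in the tumours, against 2.65, 2.47 and 3.60 in the pools. Outside Lin- arrays, 2 tumour arrays and 4 normal arrays were therefore over the low band. Zeb1 was lower in tumour CD29hiCD24+ cells, with a difference of -2.90 ± 0.81 (adjusted p = 0.0069). The call rests on pool F, since without its CD29hiCD24+ array the difference was -1.70 (adjusted p = 0.097). Pool F also had the high endothelial and leukocyte means given above, whose part in the Zeb1 difference was not tested. A second Zeb1 probe set gave -1.002 ± 0.35 (adjusted p = 0.0299), and its signal in pool F was 5.58 against 2.89 and 3.42 in pools G and H. The remaining 2 Zeb1 probe sets did not pass the filter.

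In Lin- cells Zeb1 was 6.71, 5.16, 6.91, 2.49 and 5.32 in tumours A to E, against 6.68, 5.18 and 5.78 in pools F to H, and the groups overlapped (-0.56 ± 0.81, adjusted p = 0.608). Zeb2 there was 6.20, 7.06, 6.24, 3.67 and 4.56 in the tumours, against 6.34, 3.66 and 3.76 in the pools (0.96 ± 0.75, adjusted p = 0.336). Tumour D was the lowest tumour for both genes, as it was for the fibroblast markers. In CD29hiCD24+ cells Zeb2 ran from 3.54 to 5.63 in tumours and from 3.52 to 5.78 in pools, a difference of -0.07 ± 0.75 (adjusted p = 0.957), and its sign turned with quantile normalisation and with the mean of its probe sets. None of the 4 Zeb2 probe sets that passed the filter was called between tumour and normal.

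Ovol1, a zinc finger repressor made in epithelia that in human tumour cell lines represses ZEB1, rose in all 3 tumour populations. It was 9.60, 10.22, 10.38, 10.40 and 10.36 in the CD29hiCD24+ cells of tumours A to E, against 3.42, 4.58 and 5.66 in those of pools F to H. In CD29+CD24+ cells it was 10.20, 10.10, 10.96, 9.97 and 11.79 in the tumours, against 7.65, 6.80 and 7.56 in the pools. The tumours lay above every pool in both gates, by 5.64 ± 0.48 (adjusted p = 1.54e-08) and 3.27 ± 0.48 (adjusted p = 1.18e-05). In Lin- cells it was 10.33, 11.12, 11.14, 10.33 and 11.88 in the tumours, against 7.42, 6.16 and 7.68 in the pools, higher by 3.87 ± 0.48 (adjusted p = 1.78e-06). The second Ovol1 probe set gave 6.84 ± 0.47, 4.77 ± 0.47 and 5.46 ± 0.47 in the 3 populations, and in normal CD29hiCD24+ cells its signal was in the low band, at 2.65 to 2.74.

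Cdh1, which codes for E-cadherin, the adhesion molecule of epithelial junctions, was high in all 24 arrays, between 12.89 and 14.27. It was 13.51, 13.67, 13.42, 13.59 and 12.99 in the CD29hiCD24+ cells of tumours A to E, against 12.89, 13.62 and 13.57 in those of pools F to H, a difference of 0.07 ± 0.15 (adjusted p = 0.741). In CD29+CD24+ cells it was 13.89, 13.94, 13.91, 13.96 and 13.71 in the tumours, against 14.11, 14.27 and 14.06 in the pools. Every tumour array of that gate lay below every normal one, by a small margin. This difference of -0.26 ± 0.15 was not called (adjusted p = 0.163) but was with quantile normalisation (-0.32, adjusted p = 0.0444), in a fit of these 2 groups (adjusted p = 0.0494) and with a block for description numbers (-0.47, adjusted p = 0.0293). In Lin- cells the difference was -0.06 ± 0.15 (adjusted p = 0.786). Cdh1 had the second narrowest span of group means, 0.78, after Twist1 with 0.72.

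Cdh2, which codes for N-cadherin, was highest in normal CD29hiCD24+ cells. It was 4.43, 4.58, 4.30, 5.56 and 3.58 in the CD29hiCD24+ cells of tumours A to E, against 8.32, 7.43 and 7.81 in those of pools F to H, lower by a difference of -3.36 ± 0.42 (adjusted p = 2.46e-06). In CD29+CD24+ cells it was 4.55, 4.83, 4.22, 6.16 and 5.42 in the tumours, against 3.19, 3.23 and 3.36 in the pools, higher by 1.78 ± 0.42 (adjusted p = 0.00156). The direction was thus opposite in the gates, and the tumour gates ended between the normal ones. In Lin- cells the difference of 0.50 ± 0.42 was not called (adjusted p = 0.367). A second Cdh2 probe set did not pass the filter. It was over the low band in 2 arrays, the CD29hiCD24+ ones of pools G and H, so these Cdh2 differences rest on 1 probe set.

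Vim, the intermediate filament of mesenchymal and basal cells, moved in the same way as Cdh2. It was 10.44, 10.75, 10.35, 11.22 and 8.81 in the CD29hiCD24+ cells of tumours A to E, against 14.25, 13.81 and 14.28 in those of pools F to H, lower by a difference of -3.80 ± 0.61 (adjusted p = 4.58e-05). In CD29+CD24+ cells it was 11.39, 10.10, 10.004, 12.18 and 10.20 in the tumours, against 4.37, 5.59 and 7.07 in the pools, higher by 5.10 ± 0.61 (adjusted p = 7.34e-07). Neither pair of groups overlapped. In Lin- cells it ran from 12.12 to 14.30 in tumours and from 12.58 to 13.01 in pools, and the difference was 0.25 ± 0.61 (adjusted p = 0.768). The probe set that stands for Vim, like that of Snai2, is of a type that can also match other transcripts. The other 2 Vim probe sets gave -4.31 ± 0.69 and -4.35 ± 0.72 in CD29hiCD24+ cells, and 5.65 ± 0.69 and 5.06 ± 0.72 in CD29+CD24+ cells.

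Fn1, which codes for fibronectin, a matrix protein that binds integrins, varied widely between tumours, most of all in Lin- cells (SD 2.96, n = 5). It was 5.10, 4.76, 5.30, 4.55 and 3.53 in the CD29hiCD24+ cells of tumours A to E, against 8.69, 7.20 and 7.97 in those of pools F to H. In CD29+CD24+ cells it was 5.95, 4.20, 5.97, 2.76 and 2.81 in the tumours, against 2.91, 2.77 and 2.32 in the pools. The CD29hiCD24+ groups did not overlap and the CD29+CD24+ groups did. Fn1 was lower in tumour CD29hiCD24+ cells, with a difference of -3.31 ± 1.16 (adjusted p = 0.0286), and was not called in CD29+CD24+ cells (1.67 ± 1.16, adjusted p = 0.276). The call was lost without tumour B, tumour E or any 1 of the pools, with adjusted p up to 0.122 without pool F. In Lin- cells Fn1 was 11.68, 7.93, 10.99, 4.22 and 9.29 in the tumours, against 11.29, 8.87 and 9.82 in the pools (-1.17 ± 1.16, adjusted p = 0.453). Tumour D was far below the rest. A second Fn1 probe set lay near 3 in nearly every array, with a difference of -0.07 ± 0.25 in CD29hiCD24+ cells, so the probe sets of Fn1 disagree.

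Markers of other cells differed between tumour and normal too. In CD29hiCD24+ arrays the endothelial means lay between 3.30 and 4.05 in tumours, against 6.61 to 9.34 in pools, and 4 of 11 endothelial markers had a tumour mean in the low band, against 0 in pools. Means of 6 pericyte markers were 4.39 to 5.58 in tumours, against 5.88 to 6.51 in pools. Those of the 3 measured of 8 listed adipocyte markers were 3.70 to 5.12, against 7.27 to 8.80. Fibroblast means overlapped, at 5.08 to 6.16 in tumours, against 5.74 to 6.81 in pools. Luminal means did too, at 7.24 to 8.53 in tumours, against 7.65 to 10.14 in pools. Endothelial, pericyte, adipocyte and basal means were thus all lower in tumours, along with Cdh2, Vim and Fn1. Single markers did not all follow. Called lower and higher were 10 and 0 of 11 endothelial, 3 and 1 of 6 pericyte and 2 and 0 of 3 adipocyte markers. Of 12 basal markers 6 and 4 were, and of 11 luminal markers 6 and 2 (22.9% and 15.6% of all genes). The basal markers Itgb4 (3.36 ± 0.33) and Col17a1 (1.42 ± 0.44) were higher, while Cnn1 (-7.19 ± 0.77) and Myh11 (-6.99 ± 0.85) were lower. In CD29+CD24+ arrays, where Snai2, Cdh2 and Vim were higher, fibroblast means were 4.61 to 5.68 in tumours, against 3.13 to 3.30 in pools, and basal means 8.71 to 9.17, against 3.38 to 3.60. The part of these cells in the member differences was not tested.

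**Figure D2:**
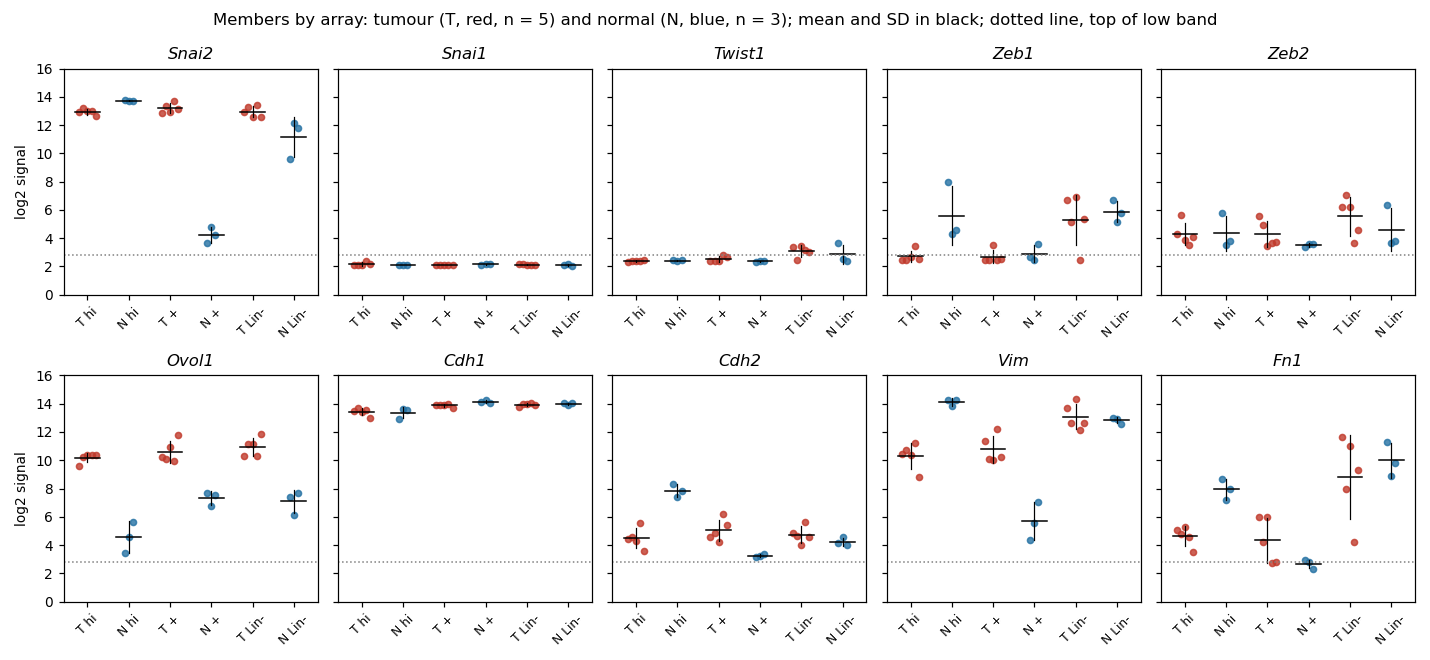
Log2 signal (y axis) of the probe set of each of the 10 genes in every array of the 6 groups (x axis; T, tumour, n = 5, red; N, normal, n = 3, blue; hi, CD29hiCD24+; +, CD29+CD24+), with the group mean and SD in black and the top of the low band dotted. Snai2, Vim and Cdh2 parted the normal gates and not the tumour gates, Ovol1 was above every normal array in all 15 tumour arrays, and Snai1 stayed in the low band.

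Ordered by group mean, Snai2 was highest in normal CD29hiCD24+ cells (13.73 ± 0.05, SD, n = 3), then in the 3 tumour populations, whose ranges overlapped their neighbours. It was lower in normal Lin- (11.18 ± 1.40, SD, n = 3) and lowest in normal CD29+CD24+ cells (4.24 ± 0.56, SD, n = 3), each apart from its neighbour. Ovol1 had the 3 tumour groups on top, overlapping one another, from 10.96 ± 0.65 in Lin- to 10.19 ± 0.34 in CD29hiCD24+ cells (SD, n = 5 each). Below them, normal CD29+CD24+ (7.34 ± 0.47) and Lin- cells (7.09 ± 0.81) overlapped, and normal CD29hiCD24+ cells (4.55 ± 1.12, SD, n = 3 each) were apart and last. For Cdh2 the top group, normal CD29hiCD24+ cells (7.85 ± 0.45, SD, n = 3), and the last, normal CD29+CD24+ cells (3.26 ± 0.09, SD, n = 3), were each apart, and the 4 groups between them overlapped in turn. Every pair of neighbours overlapped for Zeb1, Zeb2 and Twist1.

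Between tumour and normal, Cdh2 and Vim were lower in the CD29hiCD24+ cells and higher in the CD29+CD24+ cells of tumours, Ovol1 was higher in every population, and Cdh1 was called in none. In CD29hiCD24+ cells 5 of 9 tested members were called, Ovol1 higher and Zeb1, Cdh2, Vim and Fn1 lower, where 38.6% of all genes were called, 15.6% higher and 22.9% lower. Group ranges were apart for 6 members (37.0% of all genes), and the median difference was -0.79 over the members and -0.01 over all genes. In CD29+CD24+ cells 4 of 9 were called, Snai2, Ovol1, Cdh2 and Vim, each of them higher. Over all genes 43.5% were called, 16.4% higher and 27.1% lower. Ranges were apart for 5 members (44.8% of all genes), and the median was 1.67 over the members and -0.01 over all genes. In Lin- cells 2 of 9 were called, Snai2 and Ovol1, both higher, where 40.6% of all genes were called, 13.9% higher and 26.6% lower. Their ranges alone were apart among the members (38.7% of all genes). All 4 CD29+CD24+ calls were higher, where more of all genes were called lower than higher.

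**Figure D3:**
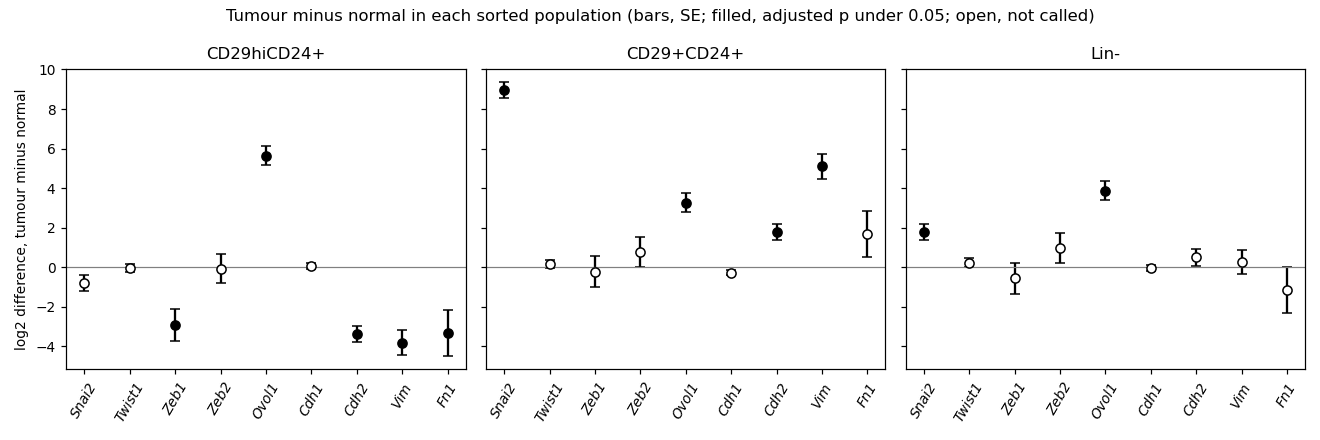
Log2 difference, tumour minus normal (y axis), of the 9 tested members (x axis) in the 3 sorted populations, with bars of 1 SE and filled points where the adjusted p is under 0.05. Cdh2, Vim and Fn1 lie below 0 in CD29hiCD24+ cells, Cdh2 and Vim lie above 0 in CD29+CD24+ cells, and Ovol1 lies above 0 in all 3.

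Labels number the samples, and these numbers fall in 3 ranges, of which only tumour E shares one with the pools. What the numbers stand for is not given, and a block for the ranges makes the level of tumour against normal rest on tumour E alone. With that block each call above kept its sign and its side of the threshold. In tumour E alone, Ovol1 was 10.36, Cdh2 3.58 and Vim 8.81 in CD29hiCD24+ cells, each on the same side of all 3 pools as the other tumours.

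The gates of the normal gland were split by most members. Relative to CD29+CD24+ cells, normal CD29hiCD24+ cells had more Snai2, Vim, Fn1, Cdh2 and Zeb1 and less Ovol1 and Cdh1, so 7 of 9 members were called, where 46.6% of all genes were, 21.3% higher and 25.3% lower. Snai2 was higher by 9.49 ± 0.44 (adjusted p = 6.43e-13), Vim by 8.44 ± 0.68 (adjusted p = 2.94e-09), Cdh2 by 4.59 ± 0.47 (adjusted p = 9.17e-08) and Fn1 by 5.29 ± 1.30 (adjusted p = 0.00203). Ovol1 was lower, at -2.78 ± 0.54 (adjusted p = 0.000237), and so was Cdh1, at -0.78 ± 0.16 (adjusted p = 0.000506). These 6 differences had the same sign in all 3 pools. Zeb1 was higher by 2.70 ± 0.90 (adjusted p = 0.0177), and the call was lost without the CD29hiCD24+ array of pool F (1.499, adjusted p = 0.169), once the actin signal was a covariate (adjusted p = 0.0503) and in a fit of these groups alone (adjusted p = 0.074). Groups were apart for 8 of 9 members, where 58.2% of all genes were, and the median difference was 2.70 over the members and -0.03 over all genes. The 8 include Twist1, at 2.39 to 2.44 against 2.34 to 2.38. All these arrays lay in the low band, so its separation supports nothing.

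Markers of other cells moved with this gate. Means of 11 endothelial markers ran from 6.61 to 9.34 in normal CD29hiCD24+ and from 3.79 to 3.998 in normal CD29+CD24+ arrays, and those of the fibroblast markers from 5.74 to 6.81 and from 3.13 to 3.30. In the CD29+CD24+ arrays 6 of the 11 endothelial and 8 of the 14 fibroblast markers had a group mean in the low band, against 0 and 1 in the CD29hiCD24+ arrays. The part of these cells in the Vim, Fn1, Cdh2 and Zeb1 differences was not tested. The 3' actin signal exceeded the 5' one in all 6 groups, as can happen when RNA is shortened, and the cause was not tested. The excess was 2.53 ± 0.35 in the normal CD29hiCD24+ arrays, against 1.61 ± 0.21 in the normal CD29+CD24+ ones (SD, n = 3 each). Means of the remaining groups lay from 2.03 to 2.13. With the actin excess as a covariate the other 6 calls of this contrast were unchanged in sign and side.

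In tumours none of the 9 members was called between the same gates, where 4.19% of all genes were (2.25% higher and 1.94% lower), and 1 member had p under 0.05 before adjustment (limma). Snai2 differed by -0.26 ± 0.34 (adjusted p = 0.785), Vim by -0.46 ± 0.53 (adjusted p = 0.727) and Cdh2 by -0.54 ± 0.36 (adjusted p = 0.452). Within a tumour the signs were mixed, with Snai2 higher in the CD29hiCD24+ cells of 2 of 5 tumours, Vim of 2, Cdh2 of 1 and Fn1 of 3. Cdh1 was the member nearest to a call, lower in the CD29hiCD24+ cells of 5 of 5 tumours by 0.27 to 0.73 in size. Its difference of -0.45 ± 0.13 missed the threshold (adjusted p = 0.0508) and was called with the tumour or pool as a replicate block (adjusted p = 0.0107), as it was in 7 of 18 alternative settings. Group ranges were apart for 1 member, Cdh1 (5.05% of all genes). The RNA of Itgb1, the gene of CD29, had group means of 10.76 and 10.16 in tumour CD29hiCD24+ and CD29+CD24+ cells (0.60 ± 0.29, adjusted p = 0.268) and of 10.36 and 9.46 in the normal gates (0.90 ± 0.38, adjusted p = 0.0588). The CD29 protein, by which the cells were gated, was not measured on the arrays.

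The difference between the gates therefore differed between tumour and normal. For this test of the difference itself 5 of 9 members were called, 1 of them positive and 4 negative (42.0% of all genes, 22.2% positive and 19.8% negative), and it uses the same arrays as the contrasts above. The gate difference in tumours minus that in normal glands was -9.75 ± 0.56 for Snai2 (adjusted p = 4.56e-11), -8.90 ± 0.86 for Vim (adjusted p = 9.68e-08) and -5.14 ± 0.59 for Cdh2 (adjusted p = 9.8e-07). It was -4.98 ± 1.64 for Fn1 (adjusted p = 0.0191), a call lost without the array of pool F (adjusted p = 0.0507) or without pool H (adjusted p = 0.0772). For Ovol1 it was 2.37 ± 0.68 (adjusted p = 0.00838), lost without all 3 arrays of pool F (1.65, adjusted p = 0.0988), and likewise after adjustment for the actin signal (1.18, adjusted p = 0.146). Zeb1 was not called (-2.68 ± 1.14, adjusted p = 0.0641) but was with the replicate block (adjusted p = 0.0303), without tumour D (-2.92, adjusted p = 0.0227) and without pool H (-3.56, adjusted p = 0.0486). Cdh1, with 0.34 ± 0.21, was not called (adjusted p = 0.209) but was with quantile normalisation (0.51, adjusted p = 0.0235).

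**Figure D4:**
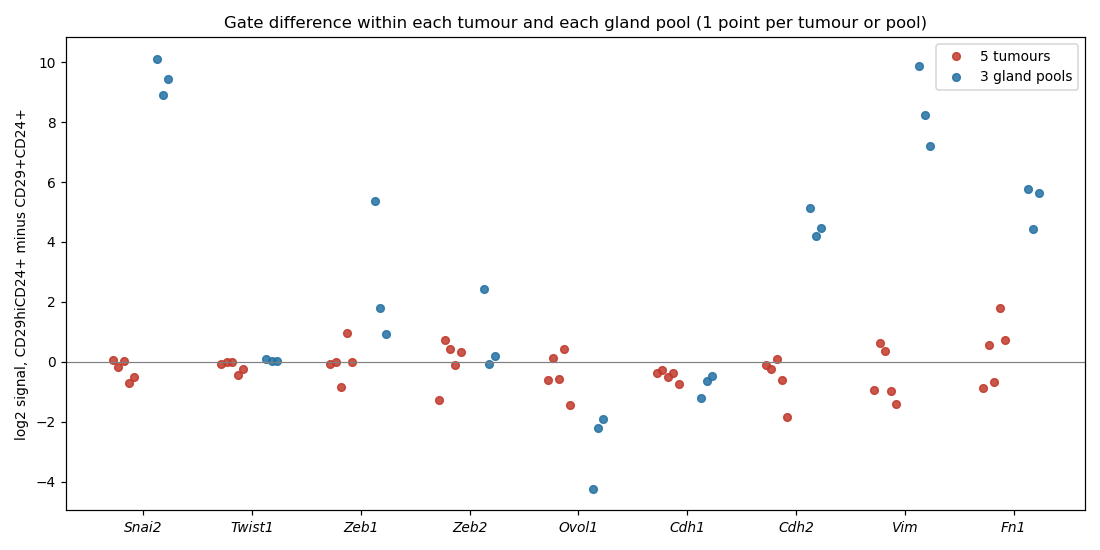
Log2 signal of CD29hiCD24+ minus CD29+CD24+ cells (y axis) of the 9 tested members (x axis), 1 point for each of 5 tumours (red) and 3 gland pools (blue). Snai2, Vim and Cdh2 differ by 4.20 or more in every pool and by less than 2 in size in every tumour, and Cdh1 is below 0 in all 8.

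Lin- cells are the population from which both gates were drawn. In tumours, CD29hiCD24+ cells were lower than Lin- cells in 5 of 9 members, with Twist1 counted, whose call supports nothing, as given below. Over all genes 8.36% were called in either direction, 3.74% higher and 4.63% lower. Ranges were apart for 2 members, Vim and Cdh1 (6.64% of all genes). The 5 called members were Vim (-2.77 ± 0.53, adjusted p = 0.00229), Fn1 (-4.18 ± 1.01, adjusted p = 0.0124), Cdh1 (-0.50 ± 0.13, adjusted p = 0.0173), Zeb1 (-2.61 ± 0.70, adjusted p = 0.0233) and Twist1 (-0.71 ± 0.19, adjusted p = 0.0242). Twist1 passed the filter through Lin- arrays and was in the low band in all 5 tumour CD29hiCD24+ arrays, so its direction was fixed by the filter and its call supports nothing. With only these groups fitted the calls of Fn1, Cdh1 and Zeb1 were lost. The Zeb1 call was also lost without tumour A (-2.20, adjusted p = 0.107) or tumour B (-2.59, adjusted p = 0.0838), and that of Twist1 without tumour A (adjusted p = 0.1) or tumour D (adjusted p = 0.069). The second Zeb1 probe set gave -0.14 ± 0.30 (adjusted p = 0.89) here. Against Lin- cells it gave -0.15 ± 0.30 for tumour and -0.22 ± 0.39 for normal CD29+CD24+ cells, neither called. Leaving out tumour C or tumour E left Vim as the 1 called member. Tumour CD29+CD24+ cells had 0 of 9 members called against Lin- cells (limma, with 4 at p under 0.05 before adjustment, and 0.215% of all genes called, 0.00742% higher and 0.208% lower). Ranges were apart for 0 members (0.653% of all genes). Fn1 was at -4.48 ± 1.01 (adjusted p = 0.0648), Vim at -2.31 ± 0.53 (adjusted p = 0.07) and Zeb1 at -2.63 ± 0.70 (adjusted p = 0.159). With the replicate block these 3 were called (adjusted p = 0.00736, 0.0175 and 0.0451), and without tumour D they were called too, at -5.24, -2.90 and -3.28. Fibroblast means ran from 5.08 to 6.16 in tumour CD29hiCD24+, 4.61 to 5.68 in tumour CD29+CD24+ and 5.78 to 10.35 in tumour Lin- arrays, and their part was not tested.

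In normal glands, CD29hiCD24+ cells exceeded Lin- cells in Snai2 (2.56 ± 0.44, adjusted p = 0.000107) and Cdh2 (3.62 ± 0.47, adjusted p = 5.03e-06) and were below them in Ovol1 (-2.53 ± 0.54, adjusted p = 0.000833) and Cdh1 (-0.63 ± 0.16, adjusted p = 0.00429), so 4 of 9 were called and 40.2% of all genes were, 17.0% higher and 23.2% lower. Ranges were apart for 6 members (48.9% of all genes). The Cdh1 call was lost without pool F (-0.36, adjusted p = 0.13) and with only these groups fitted (adjusted p = 0.0598). Vim differed by 1.28 ± 0.68 (adjusted p = 0.147), was higher in 3 of 3 pools, and was called in a fit of these groups alone (adjusted p = 0.00427). Normal CD29+CD24+ cells were below Lin- cells in Snai2 (-6.94 ± 0.44, adjusted p = 8.83e-10), Vim (-7.16 ± 0.68, adjusted p = 3.57e-07) and Fn1 (-7.32 ± 1.30, adjusted p = 0.000881), 3 of 9 members where 4.19% of all genes were called, 0.512% higher and 3.68% lower. Ranges were apart for 7 members (18.4% of all genes). The 7 include Twist1, which passed the filter mainly through Lin- arrays and was in the low band in every normal CD29+CD24+ array, so its separation supports nothing. Zeb1, at -2.97 ± 0.90, was not called (adjusted p = 0.0726) but was with the replicate block (adjusted p = 0.0228), in a fit of these groups alone (adjusted p = 0.021), without the CD29hiCD24+ array of pool F (adjusted p = 0.0215) and without tumour D (adjusted p = 0.0231). Fibroblast means were 7.76 to 9.86 in the normal Lin- arrays.

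For the 5 members whose group means spanned at least 4 log2 units, the most similar patterns were sought among all tested genes, by the mean absolute difference of log2 signals over the 24 arrays after each gene's mean was taken off. Nearest to Snai2 were Fst, the activin inhibitor follistatin (0.40), the D-type cyclin Ccnd2 (0.45) and Id4, an inhibitor of helix-loop-helix factors (0.51). Fst had group means of 13.85, 13.98 and 13.85 in tumour CD29hiCD24+, CD29+CD24+ and Lin- cells, against 14.04, 4.81 and 11.16 in the same normal cells. Nearest to Cdh2 were Caprin2 (0.35), Traf5, an adaptor of tumour necrosis factor receptors (0.44), and the receptor kinase Mertk (0.44). Nearest to Vim were the matrix metalloproteinase Mmp2 (0.58), the collagen Col5a2 (0.61) and the cytokine Il6 (0.70). Nearest to Ovol1 were Crybg2 (0.51), the hydroxycarboxylic acid receptor Hcar2 (0.55) and the glutathione transferase Gsta4 (0.59), and nearest to Fn1 were Mndal (0.83) and the matrix genes Nid1 (0.90) and Col6a2 (0.90). The arrays share 5 tumours and 3 pools, so these likenesses describe the 24 arrays only.

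Other genes of the transition were read from 8 lists. In tumour CD29hiCD24+ cells, 6 of 24 measured mesenchymal effector genes were called higher and 10 lower than in normal ones (15.6% and 22.9% of all genes), with a median of -0.94 against -0.01 over all genes. The smooth muscle gene Tagln (-6.27 ± 1.14, adjusted p = 0.000177) and the galectin Lgals1 (-4.77 ± 0.62, adjusted p = 4.32e-06) were lowest, and the gelatinase Mmp9 (5.33 ± 1.02, adjusted p = 0.000302) and the matrix protein gene Tgfbi (4.56 ± 0.61, adjusted p = 6.42e-06) were highest. The list thus held calls both ways. Of 14 epithelial counter-regulators 7 were higher and 2 lower (median 0.84), led by the epithelial factors Ehf (6.35 ± 0.58) and Grhl3 (5.74 ± 0.48), with Gata3 (-0.89 ± 0.29) and Spdef (-1.12 ± 0.40) lower. Of 27 epithelial adhesion and polarity genes 6 were higher, among them the GTPase Rab25 (2.53 ± 0.43), and 7 lower, among them the keratins Krt8 (-3.52 ± 0.92) and Krt19 (-3.71 ± 1.35), with a median of -0.01. Of 16 other transition factors 4 were higher, with the forkhead genes Foxq1 (5.20 ± 0.27) and Foxc1 (2.28 ± 0.33), and 2 lower, Prrx1 (-3.04 ± 0.77) and Sox4 (-1.62 ± 0.45).

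Lists of signalling and adhesion partners held calls both ways too, and the same shares of all genes, 15.6% higher and 22.9% lower, stand beside each count. Counts near these shares are no result about the partners. Of 22 genes of TGF-beta signalling, an inducer of the transition, 3 were higher in tumour CD29hiCD24+ cells, with the activin subunit Inhba (6.88 ± 0.75) and the ligand Tgfb1 (1.86 ± 0.43), and 6 lower, with the co-receptor Tgfbr3 (-3.15 ± 0.51) and the matrix protein gene Ltbp2 (-6.82 ± 1.12). Of 9 integrin genes of fibronectin receptors 1 was higher, Itgb6 (5.16 ± 0.63), and 4 were lower, with Itgb3 (-4.78 ± 0.75) and Itga8 (-3.92 ± 0.65). Of 13 other classical cadherins and catenins the junction gene Jup was higher (1.35 ± 0.25) and 3 were lower, with Cdh11 (-3.77 ± 0.88) and the endothelial cadherin Cdh5 (-4.73 ± 0.67). Endothelial means, given above, were lower in the same arrays, and their part in these differences was not tested. Cdh5 is itself in the endothelial marker list. Of 15 cofactors and stability regulators of Snail and Zeb proteins 2 were higher, Ajuba (1.99 ± 0.32) and the deacetylase Hdac1 (0.60 ± 0.17), and 2 lower, with the corepressor Ctbp2 (-1.11 ± 0.23).

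In tumour CD29+CD24+ cells 12 of the 24 mesenchymal effectors were higher than in normal ones and 0 lower, with a median of 1.96. Of 27 epithelial adhesion and polarity genes 3 were higher and 18 lower there, with a median of -1.63, where 16.4% of all genes were higher and 27.1% lower. Basal, luminal and fibroblast means, given above, moved with these counts, and their part was not tested. These lists share genes with the marker lists, so the 2 are not independent. Acta2 is a mesenchymal effector and a basal marker, and Krt19 and Cldn4 are adhesion genes and luminal markers. Between the normal gates (21.3% of all genes higher and 25.3% lower) 17 mesenchymal effectors were higher in CD29hiCD24+ cells and 0 lower, with a median of 4.03, led by the matrix gene Sparc (10.44 ± 0.48) and Tagln (10.15 ± 1.27). Of the adhesion genes 0 were higher and 19 lower there, with a median of -2.41, and Cldn4, a claudin (-5.34 ± 1.08), and the junction gene Cgn (-4.75 ± 0.66) were lowest. Between the tumour gates (2.25% of all genes higher and 1.94% lower) 5 mesenchymal effectors were higher, with the smooth muscle actin Acta2 (3.80 ± 0.72) and Tgfbi (2.28 ± 0.53), and 0 were lower. Of the adhesion genes 9 were lower, with the tricellular junction gene Marveld2 (-1.81 ± 0.31) and Tjp3 (-1.66 ± 0.42), and 0 were higher.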

How the data were processed

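Per the labels, a micro kit with columns gave the RNA of the sorted cells, which then took up biotin in a two-cycle labelling. The values are the log2 signals deposited by the authors, and the submitters' processing notes name RMA, GCRMA and Partek, with no version, role or order. That the scale is log2 was judged from the values, which ran from 0.489 to 16.06. Arrays have no read depth, and their number sets how precise a mean is.

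The platform annotation names 1 gene for 34945 of 45101 probe sets. Of those, 24278 exceeded the low band, which ends at the 40th percentile, in 3 or more arrays and were kept. All 10 members matched a gene identifier of RefSeq. limma 3.58.1 in R 4.3.3 estimated a mean per group (6 groups), through lmFit and eBayes (variance trend on), and tested 10 contrasts, and was tested on simulated data. The members and the lists were chosen with earlier results of these data known. All members are named, and of each list up to 2 called genes per direction with the largest differences among those whose groups did not overlap. List members with no kept probe set were not analysed here.

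The letters in the titles pair the 3 arrays of a tumour or pool. Of pool H, 2 titles lack the letter, which was given by elimination. Deviations from the group means, taken across genes, had a median correlation of 0.578 for arrays of 1 tumour (15 pairs, 0.359 to 0.738) against -0.167 for different tumours (60 pairs), and of 0.142 for arrays of 1 pool (9 pairs, -0.038 to 0.319) against -0.071 (18 pairs). Deviations from a group mean cancel out over its letters, which ties the different-letter values to the same-letter ones. The different-letter values are therefore no independent baseline. The replicate block was a random block with a consensus correlation of 0.321. The other alternatives were quantile normalisation, no filter and a stricter filter at the 60th percentile, the mean of the kept probe sets, no variance trend, only the compared groups, a block for description numbers, the difference between 3' and 5' actin signals as a covariate, and leaving out each tumour, each pool and the CD29hiCD24+ array of pool F.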

Additional observations from a re-analysis of the deposited data

Results flagged for a closer look

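Outlying arrays were looked for in 30 sets, the 5 tumours of each member in each population, and chance alone flags about 1 in 20 sets. Zeb1 was 3.43 in the CD29hiCD24+ cells of tumour D, where the next highest tumour was 2.70, and 3.54 in the CD29+CD24+ cells of tumour C, where the next was 2.51. In both cases the other 4 arrays lay in the low band. Ovol1 was 9.60 in the CD29hiCD24+ cells of tumour A, below the next lowest tumour at 10.22, and still above every normal array.

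The gate contrast, CD29hiCD24+ against CD29+CD24+, differed between tumour and normal for 5 members by the test of the difference itself. The values were -9.75 for Snai2, -8.90 for Vim, -5.14 for Cdh2, -4.98 for Fn1 and 2.37 for Ovol1. Those of Fn1 and Ovol1 lost their calls without pool F, as given above.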

How the results depend on the processing

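Over 18 alternatives, 25 of 35 called member differences were called in every one and 0 changed sign, and of 1610 member values 1510 kept sign and side of the threshold. The 35 include the Twist1 call between tumour CD29hiCD24+ and Lin- cells, which supports nothing. The stricter filter left no value for Twist1. Counts of called members that moved over 1.5 times were as follows. Between tumour and normal CD29hiCD24+ cells, leaving out arrays gave 3 to 5 against 5. Between normal CD29+CD24+ and Lin- cells, fitting only these groups gave 5 against 3. Between the tumour gates, 1 member, Cdh1, was called against 0 with the stricter filter, the mean of probe sets, the replicate block, the description block and the actin covariate, and 0 to 1 with arrays left out. Between tumour CD29hiCD24+ and Lin- cells 2 were called with only these groups fitted and 1 to 5 with arrays left out, against 5 with Twist1 counted. Between tumour CD29+CD24+ and Lin- cells 2 were called with the stricter filter, 3 with the replicate block and 0 to 3 with arrays left out, against 0. For the difference between gate contrasts, arrays left out gave 3 to 6 against 5, with 3 without pool F.

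Counts of all called genes moved too. Between normal CD29hiCD24+ and Lin- cells they ran from 3491 to 5569 with arrays left out, against 5420, and between normal CD29+CD24+ and Lin- cells the replicate block gave 906 against 565. Between the tumour gates 565 became 1817 with the replicate block, 149 with only these groups, 1263 with the description block and 207 to 565 with arrays left out. Between tumour CD29hiCD24+ and Lin- cells 1128 became 2400, 465, 1876 and 469 to 1117 under the same settings. Between tumour CD29+CD24+ and Lin- cells 29 became 13 with no filter, 54 with the stricter filter, 122 with the replicate block, 0 with only these groups (limma, 434 genes at p under 0.05 before adjustment), 15 without the trend, 45 with the description block and 0 to 83 with arrays left out. The cause of these moves was not tested.

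Signs turned only among differences that were not called. Between tumour and normal CD29hiCD24+ cells, Zeb2 was 0.071 with quantile normalisation, 0.32 with the mean of probe sets and -0.49 to 0.64 with arrays left out, Twist1 was 0.017 with the description block and 0.0036 with the actin covariate, and Cdh1 was -0.14 and -0.011 with these 2 settings and -0.16 to 0.20 with arrays left out. In CD29+CD24+ cells Zeb1 was -0.43 to 0.14 with arrays left out. In Lin- cells Vim was -0.60 with the description block and -0.054 to 0.49 with arrays left out, and Zeb1 -0.96 to 0.14. Between the normal gates Twist1 was -0.021 with the actin covariate. Against normal Lin- cells, normal CD29hiCD24+ cells had Zeb1 at 0.27 with the mean of probe sets and -1.48 to 0.20 with arrays left out, and Zeb2 at 0.030 with the actin covariate, and normal CD29+CD24+ cells had Ovol1 at -0.40 with that covariate. Between the tumour gates, arrays left out gave -0.22 to 0.23 for Zeb1, -0.15 to 0.35 for Zeb2 and -0.064 to 0.60 for Fn1. Between tumour CD29hiCD24+ and Lin- cells, Snai2 was 0.095 with quantile normalisation, 0.027 with the actin covariate and -0.096 to 0.095 with arrays left out.

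With quantile normalisation the share of higher calls among all called genes was 53.7% against 40.5% between tumour and normal CD29hiCD24+ cells, 69.5% against 53.8% between the tumour gates and 61.6% against 44.7% between tumour CD29hiCD24+ and Lin- cells. With only the compared groups fitted it was 1.55% against 12.2% between normal CD29+CD24+ and Lin- cells. The replicate block changed no call of a member beyond those named in the text. With 3 pools and 5 tumours, and members near the low band, small differences of Zeb1, Zeb2 and Twist1 cannot be resolved.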
